A study of Mus musculus with 6 samples.

Results

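Fatty acid metabolism and lipid droplet storage were followed through 46 genes in 6 stable clones of NIH3T3 cells, measured on Illumina bead arrays. The genes were taken from a list of enzymes, carriers, droplet proteins and transcription factors of this metabolism, and every probe whose annotated symbol was on the list was used. Of the 46 genes, 45 had a probe, 81 probes in all, among 19057 named genes and 45281 probes on the array. No probe here carried the symbol Acsl1. The list was drawn up with earlier results from these arrays known, so no test was made on the list as a whole.

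Fatty acids are built in the cytosol from acetyl-CoA, which is carboxylated and then joined into palmitate by fatty acid synthase, and palmitate is lengthened and desaturated at the endoplasmic reticulum. Free fatty acids are taken up, activated to acyl-CoA, and then either esterified into triglyceride, which is kept in droplets coated with perilipins, or carried into mitochondria by the carnitine shuttle and oxidised. Many of the synthetic genes are targets of the sterol-regulated SREBP factors, while PPAR factors control storage and oxidation, and fibroblasts keep a basal level of this machinery without the large fat stores of adipocytes.

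NIH3T3 is an immortalized fibroblast line from embryos of NIH Swiss mice. The FEAT group was FEAT-3, FEAT-15 and FEAT-20, 3 clones with a stable insert of the human FEAT reading frame in pEF-DEST51, under the promoter of elongation factor 1 alpha, kept after 7 days in blasticidin S at 10 µg/ml and chosen for high FEAT protein. FEAT is also known as METTL13, a methyltransferase of the elongation factor eEF1A. The control group was ΔccdB-1, ΔccdB-2 and ΔccdB-3, 3 clones with pEF-DEST51 from which the ccdB gene had been deleted. Each line was 1 clone on 1 array, so the spread within a group, and the p-values that rest on it, are those between clones. The sources used here do not give the medium, serum, cell density or passage at harvest, or the selection of the control clones. The question was which transcripts of this metabolism differ between clones with and without the insert, and mouse probes give no check of a human insert.

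Between 38.3% and 42.4% of probes lay above a background limit, placed on each array 3 SDs above its most common log2 intensity, with the SD taken from the side of lower values. Pairs of clones of the same group correlated at r = 0.9887 to 0.9926 over the tested probes, and pairs across the groups at 0.9878 to 0.9902. Intensities below are those of the deposited value table, in which every array has the same mean, and they still contain the background. On the scale of this table the limits ran from 90.1 to 106, with the highest on FEAT-3, so a dim probe reads higher on that array. Of 12 fibroblast markers, 11 were above the limit on all 6 arrays. Of the 11 tested, Col1a1, Col1a2, Col3a1 and Fn1 had an unadjusted p under 0.05, higher in FEAT clones (log2 differences of 0.61, 0.44, 0.65 and 0.54), with none called. At that threshold 5.2% of all named genes were higher and 4.94% lower. The remaining markers gave 0.38 (Thy1), 0.25 (Pdgfra), 0.18 (Dcn), 0.11 (Sparc), 0.026 (Vim), -0.093 (S100a4) and -0.11 (Pdgfrb). The summed intensity of the 12 fibroblast markers was 61575 to 63922 in control and 63912 to 72713 in FEAT clones, and their part in the results was not tested. Of 8 adipocyte markers on the array, 0 were above the limit on any array, and the list's summed intensity was 625 to 685 in control clones and 592 to 717 in FEAT clones. The 4 macrophage markers were above it on no array either (289 to 317 in control clones and 283 to 346 in FEAT clones). Of the 4 endothelial markers, Pecam1 and Cdh5 were above it on no array, Kdr on 1 and Tek on 2 (list sums of 337 to 376 and 347 to 401). Of the 4 epithelial markers, Cdh1 was above it on all arrays, Krt8 on 1 and Epcam and Krt18 on none (list sums of 346 to 352 and 309 to 387). Of the 4 skeletal muscle markers, Acta1 and Des were above it on all arrays, Myog on 4 and Myod1 on none (437 to 525 and 479.8 to 929). Acta1 was at 181 ± 52.4 in control and 330 ± 228 in FEAT clones, with overlap. In a whole-culture RNA sample, fewer cells with a transcript and less of it per cell cannot be told apart.

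Of the 45 genes, 31 were above the limit on all 6 arrays on their brightest probe, 5 on some arrays (Fasn, Slc27a3, Lipe, Mgll and Cebpa) and 9 on none. The last were Acaca, Acacb, Me1, Cd36, Fabp4, Agpat2, Cpt1a, Pparg and Ppara, whose intensities over all clones lay between 60.9 and 94.2. They include the adipogenic regulator Pparg and its fat cell targets Cd36 and Fabp4, and also acetyl-CoA carboxylase, Acaca, an enzyme that dividing cells need. For these 9 genes no fold is given, and of them only Agpat2 was bright enough to be among the probes tested, where its values are those of the background. Probes of different genes differ in their response, so their intensities are not compared with each other.

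**Figure D1:**
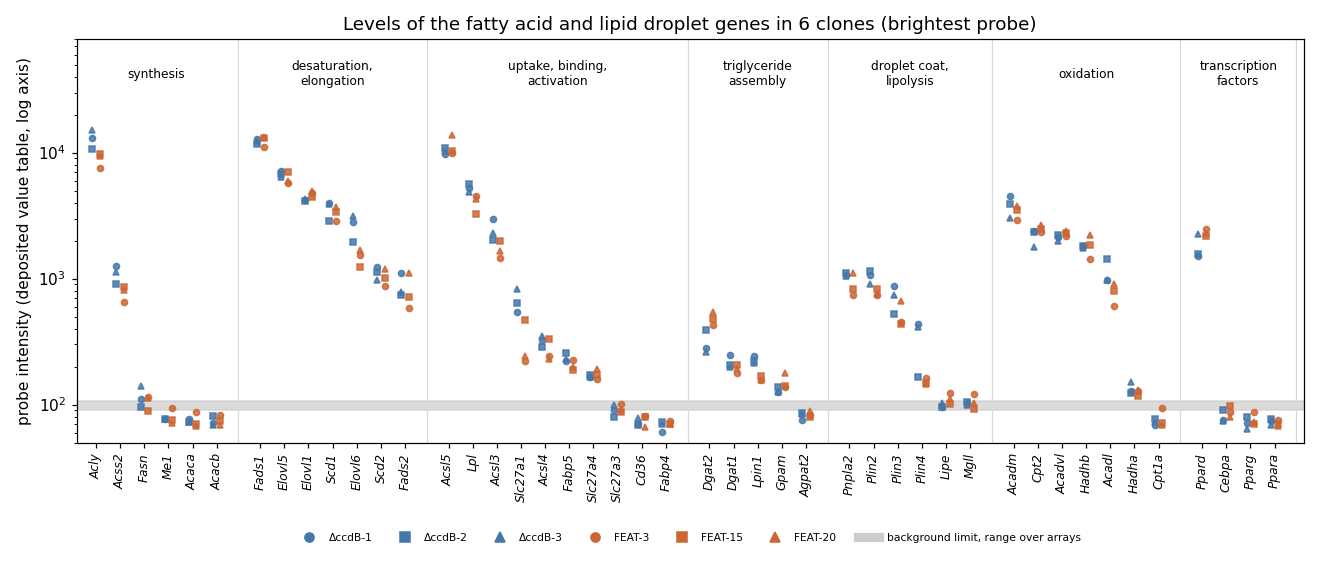
Intensity of the brightest probe of each of the 45 genes, on a log axis, by role, with control clones in blue and FEAT clones in orange and 1 point per clone. The grey band is the range of the background limits; 31 genes lie above it in every clone and 9 lie below the limit in every clone.

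Before the groups were compared, probes were background-corrected, quantile-normalized and put on a log2 scale, and the 27169 brightest, 60% of all, were tested with limma. They included 57 probes of 37 of the 45 genes. With a threshold of adjusted p under 0.05 over all tested probes, 0 of the 57 probes passed, against 0.184% of all probes (0.118% higher and 0.0663% lower). Likewise 0 of the 37 genes passed on their brightest probe, against 0.225% of all named genes (0.135% higher and 0.0901% lower). At an unadjusted p under 0.05 there were 11 lower and 2 higher genes, 29.7% and 5.41% of the 37, where all named genes gave 4.94% lower and 5.2% higher, 10.1% in all. In 10 genes all 3 FEAT clones were below all 3 control clones and in 2 genes above them, or 27% and 5.41%, where all named genes gave 7.24% and 7.95%, 15.2% in all. By probe, 13 of the 57 were lower and 3 higher at an unadjusted p under 0.05, or 22.8% and 5.26%, where all probes gave 4.57% and 4.51%, 9.08% in all. Clones did not overlap in 12 lower and 3 higher probes, 21.1% and 5.26%, where all probes gave 6.9% and 7.18%, 14.1% in all. The median log2 difference, FEAT minus control, was -0.15 over the 37 genes and 0.0071 over all 13315 named genes tested, with 23 of the 37 below 0. Of the 37, 31 were above the background limit on all 6 arrays. The shares over all genes and probes were not matched to the list for brightness.

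The 10 genes lower in every FEAT clone were Acly, Acss2, Elovl6, Lpl, Slc27a1, Acsl3, Lpin1, Plin2, Plin4 and Acadl, and the 2 higher ones were Elovl1 and Dgat2. They came from every role on the list except the transcription factors. By role, the median log2 difference was -0.50 over 3 tested genes of synthesis, -0.12 over 7 of desaturation and elongation and -0.30 over 8 of uptake, binding and activation. It was 0.018 over 5 genes of triglyceride assembly, -0.40 over 6 of droplet coats and lipolysis, -0.077 over 6 of oxidation and 0.32 over 2 transcription factors. The value for triglyceride assembly is that of Agpat2, above the limit on no array, so it compares background. The value for the transcription factors rests in part on Cebpa, which was above the limit on 1 array. The adjusted p of these 12 genes ran from 0.122 to 0.773 with limma, and none passed. The intervals of Acly, Acss2, Elovl6, Lpl, Slc27a1, Acsl3, Lpin1, Plin2, Plin4, Acadl and Dgat2 lay on 1 side of 0 when taken gene by gene, without adjustment for the number of probes.

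**Figure D2:**
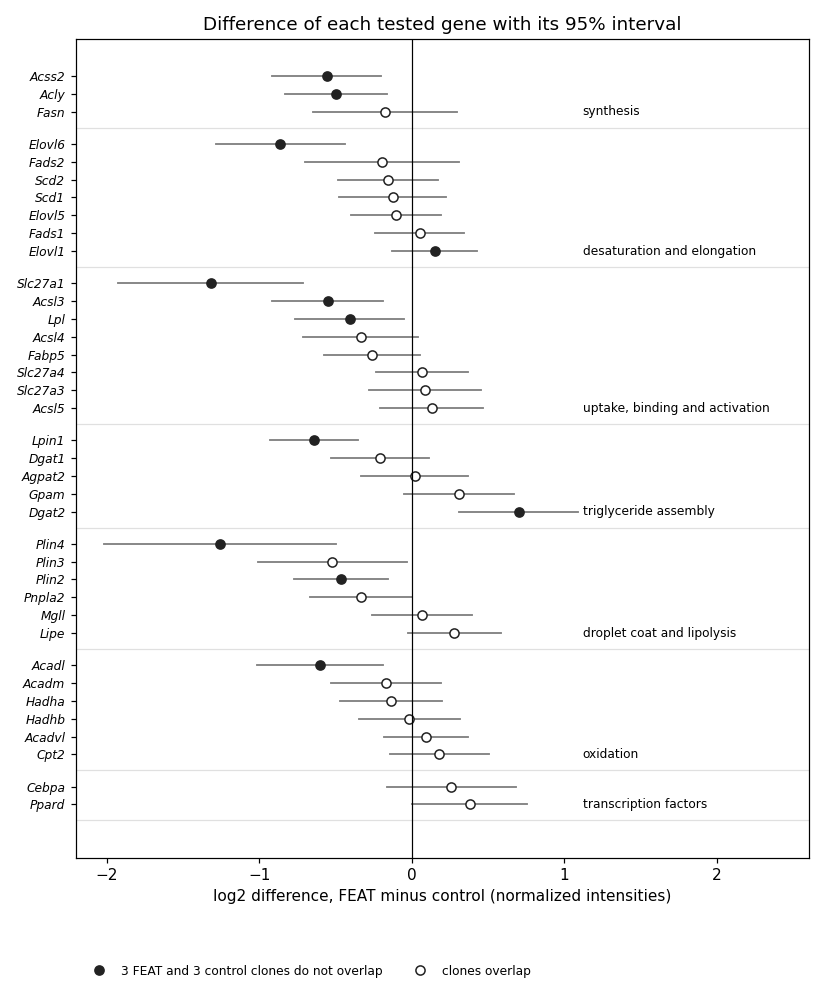
Log2 difference, FEAT minus control, of the brightest probe of each of the 37 tested genes, with its 95% interval from limma, not adjusted for the number of genes. Filled points mark the 12 genes whose clones do not overlap, 10 of them left of 0. Agpat2 was above the background limit on no array, so its point compares background.

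Promoter sequence is shown for 5 of the 10 lower genes, because SREBP, NF-Y and nuclear receptors are known to act on lipid genes close to the start site. The RefSeq table (GRCm38.p6) held promoters of 38 of the 46 genes, 48 start sites in all, and the 250 bases before each start were searched on both strands. Capitals mark matches to CCAAT (the NF-Y box), CACGTG (an E-box), GGGCGG (a GC box), AGGTCA (a nuclear receptor core motif) or TCACNCCAC (a sterol regulatory element). Matches may overlap or adjoin, as a CCAAT and a GC box adjoin in Acsl3. The windows are chr11:100528001-100528250 (minus strand) for Acly, chr2:155517793-155518042 (plus strand) for Acss2, chr3:129532136-129532385 (plus strand) for Elovl6, chr1:78657575-78657824 (plus strand) for Acsl3 and chr12:16610967-16611216 (minus strand) for Lpin1, and each is written 5′ to 3′ on the strand of its gene.
Acly: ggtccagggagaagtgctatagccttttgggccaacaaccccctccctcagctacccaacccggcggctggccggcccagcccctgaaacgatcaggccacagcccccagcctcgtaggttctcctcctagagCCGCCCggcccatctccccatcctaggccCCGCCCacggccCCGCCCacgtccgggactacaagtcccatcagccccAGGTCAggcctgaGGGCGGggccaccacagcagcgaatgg
Acss2: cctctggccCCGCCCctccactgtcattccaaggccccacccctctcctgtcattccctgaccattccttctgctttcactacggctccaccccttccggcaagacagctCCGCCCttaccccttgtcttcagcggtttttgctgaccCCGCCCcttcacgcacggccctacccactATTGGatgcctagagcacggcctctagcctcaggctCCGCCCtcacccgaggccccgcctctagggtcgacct
Elovl6: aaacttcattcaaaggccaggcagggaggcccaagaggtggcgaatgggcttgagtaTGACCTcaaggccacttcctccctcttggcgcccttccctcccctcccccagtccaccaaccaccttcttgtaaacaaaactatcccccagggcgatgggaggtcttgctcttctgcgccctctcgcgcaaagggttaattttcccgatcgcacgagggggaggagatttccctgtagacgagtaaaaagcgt
Acsl3: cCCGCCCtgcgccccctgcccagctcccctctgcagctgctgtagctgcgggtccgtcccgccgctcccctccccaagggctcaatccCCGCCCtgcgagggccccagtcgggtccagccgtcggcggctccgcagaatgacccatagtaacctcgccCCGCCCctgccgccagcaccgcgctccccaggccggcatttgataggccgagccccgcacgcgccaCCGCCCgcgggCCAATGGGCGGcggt
Lpin1: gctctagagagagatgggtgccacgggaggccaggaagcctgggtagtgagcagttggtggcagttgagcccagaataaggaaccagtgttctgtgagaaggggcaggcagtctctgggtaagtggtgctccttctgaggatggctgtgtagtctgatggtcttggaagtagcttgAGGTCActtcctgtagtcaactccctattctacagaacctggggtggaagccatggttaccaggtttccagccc

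The promoters of Acly, Acss2 and Acsl3 held several GC boxes each, while those of Elovl6 and Lpin1 held 1 nuclear receptor core motif and no other match. Over all 48 promoters of the list, 60.4% held a GC box, 43.8% a CCAAT, 25% a nuclear receptor motif, 8.33% an E-box and 2.08% the sterol element, against 32.7%, 33.8%, 14%, 6.02% and 1.05% of the 32851 promoters in the table. Of the 9 lower genes with a promoter in the table, 5 had a GC box, 5 a CCAAT and 4 a nuclear receptor motif, and of the 21 other tested genes 15, 8 and 4 did. The single sterol element was at Acsl1, and its absence elsewhere says only that these letters are not in these windows. A match is a description of the sequence, not a site in use.

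Both enzymes that supply cytosolic acetyl-CoA were lower in all FEAT clones. ATP citrate lyase, Acly, which splits exported citrate, read 13117, 10661 and 15056 in ΔccdB-1, ΔccdB-2 and ΔccdB-3 and 7587, 9822 and 9352 in FEAT-3, FEAT-15 and FEAT-20. The groups did not overlap, with ΔccdB-2 the lowest control and close to FEAT-15, and the means were 12944 ± 2203 and 8920.3 ± 1179 (SD, n = 3 clones each). The log2 difference of Acly was -0.50 (SE 0.15, 95% interval -0.83 to -0.16, limma, adjusted p = 0.318). The acetyl-CoA synthetase Acss2, which activates acetate, read 1269.5, 903 and 1134 in the control clones and 652, 859.6 and 813 in the FEAT clones, in the order named above, again with ΔccdB-2 as the lowest control. Its log2 difference was -0.56 (95% interval -0.91 to -0.20, adjusted p = 0.282), and a second probe, above the limit on 4 of 6 arrays, gave -0.14 (adjusted p = 0.799).

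The next steps of synthesis could hardly be measured. Fatty acid synthase, Fasn, had 1 probe, above the limit on 2 control and 2 FEAT arrays, with intensities of 111, 96 and 139.8 in control and 116, 89.5 and 112 in FEAT clones that overlapped. Its log2 difference was -0.18 with an interval of -0.65 to 0.30, which spans 0. The carboxylase genes Acaca and Acacb and the malic enzyme gene Me1, a source of NADPH, were not above background on any array, at 67.9 to 87.7, 68.5 to 83 and 71 to 93.2 over the 6 clones. They were below the tested 60% of probes.

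Among the elongases and desaturases of the 46 genes, Elovl6, which lengthens palmitate, was the 1 gene with lower levels in every FEAT clone. It read 2826, 1952 and 3169 in the control clones and 1529, 1233 and 1682 in the FEAT clones, 2649 ± 628 against 1482 ± 228. Every FEAT clone was below every control clone, although controls ranged over 1.62-fold, with ΔccdB-2 the lowest. The log2 difference was -0.86 (SE 0.19, 95% interval -1.28 to -0.44, adjusted p = 0.151). Without ΔccdB-2 it was -1.06 and passed (adjusted p = 0.0262, with 0.582% of all probes called in that fit). ΔccdB-2 was the control nearest to the FEAT clones, so the larger difference follows from its omission. No other omission of a clone passed, and the adjusted p reached 0.488. The remaining Elovl6 probe stayed below the limit throughout.

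The elongase Elovl1, of very long saturated chains, was higher by a small margin. Its brightest probe read 4185, 4139.8 and 4315 in control and 4799.9, 4468 and 4942 in FEAT clones, without overlap, a log2 difference of 0.15 with an interval of -0.13 to 0.43 (adjusted p = 0.773). The gap between the groups was 0.0053 on the log2 scale, and the other probes gave 0.026, 0.06 and 0.07, each with overlap. Elovl5, an elongase of polyunsaturated chains, read 7109, 6761 and 6360.1 and 5751, 7012 and 5977, with overlap and a log2 difference of -0.10 (interval -0.40 to 0.19).

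The desaturases overlapped between the groups. The front-end desaturase gene Fads1 read 12763, 11742 and 12349.6 in control and 11018, 13088 and 13379.8 in FEAT clones, a log2 difference of 0.052 (95% interval -0.24 to 0.34, adjusted p = 0.940). Fads2, its partner in polyunsaturated fatty acid synthesis, was at 879 ± 196 and 806 ± 278, and its 1.92-fold range within the FEAT group, from FEAT-3 to FEAT-20, was wider than the difference of -0.19. The stearoyl-CoA desaturases, which make oleate and palmitoleate, were at 3599.5 ± 648 and 3314 ± 418 for Scd1 (log2 -0.12, interval -0.48 to 0.23) and at 1114 ± 133 and 1027 ± 152 for Scd2 (log2 -0.15, interval -0.48 to 0.18). These intervals do not show that the desaturases were equal.

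The fatty acid transporter gene Slc27a1, whose product takes up and activates long chains, showed the largest difference of the 37 genes. It read 548, 636 and 828 in ΔccdB-1, ΔccdB-2 and ΔccdB-3 and 224, 473 and 242 in FEAT-3, FEAT-15 and FEAT-20. FEAT-3 and FEAT-20 were low and FEAT-15 lay between them and the control clones. The means were 670.4 ± 143 and 313 ± 139, and the normalized level was 2.49-fold lower, a log2 difference of -1.32 (SE 0.28, 95% interval -1.92 to -0.71, adjusted p = 0.126). Without FEAT-15 it was -1.69 and passed (adjusted p = 0.0180, with 0.155% of all probes called). FEAT-15 was the FEAT clone nearest to the controls, so the larger difference follows from its omission. Slc27a1 did not pass with any other clone omitted, and its adjusted p reached 0.382. Its relatives Slc27a4, at 168 ± 3.47 and 175 ± 15.5, and Slc27a3, above the limit on 1 array of each group, gave log2 differences of 0.067 and 0.088, and their clones overlapped.

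Of the acyl-CoA synthetases, which trap fatty acids as acyl-CoA, Acsl3 was lower in all FEAT clones. This droplet and endoplasmic reticulum enzyme read 2983, 2038 and 2295 in control and 1458, 1971 and 1668 in FEAT clones, a log2 difference of -0.55 (95% interval -0.91 to -0.19, adjusted p = 0.299). A dimmer probe of Acsl3, also above the limit everywhere, gave -0.57 with overlap. Acsl4, which prefers arachidonate, was at 319.6 ± 32 and 268 ± 54.8 on its brightest probe, where FEAT-15 lay among the controls, with a log2 difference of -0.33 (interval -0.71 to 0.042). Acsl5 read 9805, 10809.7 and 10359 in control and 9963, 10235 and 13713 in FEAT clones, with FEAT-20 the highest of the 6 and the rest in overlap, a log2 difference of 0.13. Its second bright probe gave -0.13, so its 2 bright probes differed in sign, and neither passed.

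Lipoprotein lipase, Lpl, a secreted enzyme that frees fatty acids from lipoproteins, read 5272, 5599.6 and 4866 in the control clones and 4531, 3240.1 and 4296 in the FEAT clones. All FEAT clones were lower, FEAT-15 the most, with a log2 difference of -0.41 (95% interval -0.76 to -0.051, adjusted p = 0.468). The cytosolic fatty acid carrier Fabp5 was at 236 ± 18 and 204 ± 18.7, with FEAT-3 within the control range and a log2 difference of -0.26 (interval -0.58 to 0.054). The adipocyte carrier Fabp4 and the uptake receptor Cd36 were not above background on any array, at 60.9 to 74.4 and 66.8 to 80.6.

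In triglyceride assembly, Lpin1 and Dgat2 differed in opposite directions, without overlap. Lpin1 encodes lipin, the phosphatidate phosphatase that makes diacylglycerol, and its brightest probe read 244, 223 and 214 in control and 156, 168 and 156 in FEAT clones. The FEAT clones lay close together, 160.1 ± 6.83 against 227 ± 15.2, and the gap between the groups was 0.46 on the log2 scale. The log2 difference was -0.64 (SE 0.13, 95% interval -0.93 to -0.35, adjusted p = 0.122). A second probe read 244, 207 and 195 and 134, 154 and 131, also without overlap, and at -0.82 had the smallest adjusted p of the 57 probes, 0.0896. The other 2 probes of Lpin1 were not above background on any array. Lpin1 did not pass in any of the 7 processing settings or the 6 omissions of a clone, with log2 differences of its brightest probe from -0.69 to -0.50.

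Dgat2, 1 of the enzymes that add the last fatty acid to triglyceride, read 279.5, 391 and 264 in ΔccdB-1, ΔccdB-2 and ΔccdB-3 and 428, 476 and 544 in FEAT-3, FEAT-15 and FEAT-20. All FEAT clones were higher, and ΔccdB-2 was the control nearest to them. The means were 311 ± 69.7 and 483 ± 58.4, a 1.62-fold higher normalized level (log2 0.70, SE 0.18, 95% interval 0.31 to 1.09, adjusted p = 0.206). Without ΔccdB-2 the difference was 0.90 and passed (adjusted p = 0.0303, with 0.582% of all probes called in that fit). Since ΔccdB-2 was the nearest control, the larger difference follows from its omission. Omitting any other clone gave no pass, and the adjusted p reached 0.572. Dgat1, which catalyses the same step, was at 217 ± 24.5 and 193 ± 14.1, with overlap and a log2 difference of -0.21 (interval -0.53 to 0.11).

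The acyltransferases of the earlier steps overlapped after normalization. Gpam, the mitochondrial glycerol phosphate acyltransferase, read 126, 138 and 126 and 138, 141 and 179.7, with FEAT-20 the highest, and its log2 difference was 0.31 (interval -0.051 to 0.67, adjusted p = 0.614). On the scale of the deposited intensities the groups of Gpam did not overlap, but FEAT-3 and ΔccdB-2 both read 138 when rounded. Agpat2, which makes phosphatidate, was not above background on any array, at 75.9 to 88.8.

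The 3 perilipins among the 46 genes had lower mean levels in FEAT clones, and 2 of them did not overlap. Plin2, the ubiquitous droplet coat protein, read 1060.3, 1151 and 906 in control and 741, 831 and 750.2 in FEAT clones, 1039 ± 124 against 774 ± 49.2. Its log2 difference was -0.46 (SE 0.14, 95% interval -0.77 to -0.16, adjusted p = 0.306). Plin4, a coat of small droplets, read 435, 167 and 412 in control and 161, 149 and 145 in FEAT clones. The FEAT clones were close together, but the controls were not: ΔccdB-2 was near the FEAT level, and the controls ranged over 2.61-fold. The log2 difference of Plin4 was -1.26 (95% interval -2.02 to -0.49, adjusted p = 0.248). Without ΔccdB-2 it was -1.80 and passed (adjusted p = 3.07e-04, with 0.582% of all probes called in that fit). Since ΔccdB-2 was the control nearest to the FEAT clones, the larger difference follows from its omission. Plin4 did not pass with any other clone omitted, and its adjusted p over the omissions reached 0.638. Plin3, which binds nascent droplets, read 878, 524 and 737 and 452, 439 and 667, with FEAT-20 above ΔccdB-2 and a log2 difference of -0.52 (interval -1.0 to -0.034, adjusted p = 0.515).

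The lipases that empty droplets showed no gene without overlap. Pnpla2, adipose triglyceride lipase, which removes the first fatty acid, was at 1081 ± 32.6 in control and 895 ± 185 in FEAT clones. FEAT-3 and FEAT-15 were below every control clone and FEAT-20 was within the control range, a log2 difference of -0.33 (interval -0.67 to 0.0037, adjusted p = 0.557). Hormone-sensitive lipase, Lipe, with 2 control and 3 FEAT arrays above the limit, gave 0.28 (interval -0.025 to 0.58), and a second tested probe gave -0.19. Monoacylglycerol lipase, Mgll, with 3 control and 2 FEAT arrays above the limit, gave 0.065 on its brightest probe, while a dimmer probe gave 0.57 (adjusted p = 0.412).

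**Figure D3:**
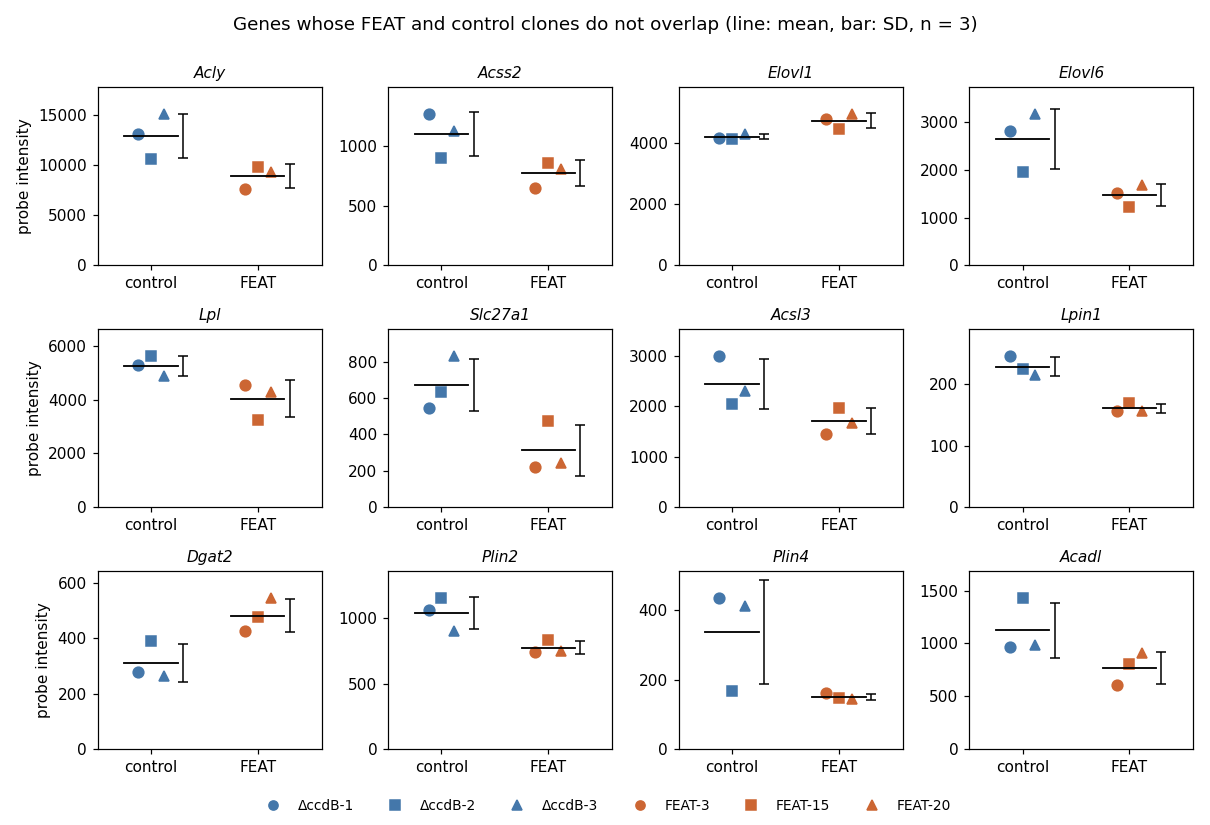
Deposited intensities, on axes that start at 0, of the 12 genes whose FEAT and control clones do not overlap on the normalized scale, 1 point per clone, with the mean as a line and the SD as a bar beside it (n = 3). Acly, Acss2, Elovl6, Lpl, Slc27a1, Acsl3, Lpin1, Plin2, Plin4 and Acadl are lower in FEAT clones, and Elovl1 and Dgat2 higher; ΔccdB-2 of Plin4 sits near the FEAT clones.

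Of the enzymes of mitochondrial oxidation among the 46 genes, long-chain acyl-CoA dehydrogenase, Acadl, was the 1 whose groups did not overlap on the brightest probe. It read 967, 1425 and 982 in control and 608, 802 and 906 in FEAT clones, with ΔccdB-2 the highest and FEAT-3 the lowest. The log2 difference was -0.60 (SE 0.19, 95% interval -1.01 to -0.19, adjusted p = 0.332), and a dimmer probe above the limit on all arrays gave -0.20 with overlap. On their brightest probes the other dehydrogenases overlapped between the groups: medium-chain Acadm was at 3828 ± 754 and 3403 ± 440.2 (log2 -0.17, interval -0.53 to 0.19), and very-long-chain Acadvl at 2105 ± 117 and 2295 ± 94.9 (log2 0.093, interval -0.18 to 0.37). A second probe of Acadvl was higher in every FEAT clone after normalization, by 0.12 (adjusted p = 0.819), but overlapped in the deposited intensities. The difference between Acadl and these genes was not tested. Cpt2, the inner membrane enzyme of the carnitine shuttle, was at 2172 ± 331 and 2491 ± 146, with log2 differences of 0.18, 0.024 and 0.15 on its 3 probes. The trifunctional protein subunits Hadha and Hadhb gave -0.14 and -0.016, both with overlap. The outer membrane enzyme Cpt1a, the gate of the pathway, was not above background on any array, at 68.3 to 94.2, on either of its probes.

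Of the transcription factors, Ppard, the widely expressed PPAR, was the 1 above the limit on all arrays. It read 1513, 1558 and 2252 in control and 2460.3, 2179 and 2303 in FEAT clones, with ΔccdB-3 at the FEAT level, and gave a log2 difference of 0.38 (95% interval 0.0016 to 0.76, adjusted p = 0.547). Cebpa, which drives late adipocyte differentiation, was above the limit on FEAT-15 alone, at 74.4 to 97.9 over the 6 clones. The main adipogenic factor Pparg and the oxidative factor Ppara were not above background on any array or any of their probes.

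The FEAT clones did not all lie equally far from the controls. The median over the 37 genes of the log2 level minus the control mean was 0.024, -0.0078 and -0.049 in ΔccdB-1, ΔccdB-2 and ΔccdB-3. It was -0.25 in FEAT-3, -0.14 in FEAT-15 and -0.0057 in FEAT-20, and over all named genes it stayed between -0.003 and 0.013 in every clone. FEAT-20 thus lay within the range of the controls on this median. Each control clone is part of the mean it is compared with, so the range of the controls is partly set by construction. Against the mean of all 6 clones the medians were 0.099, 0.027 and 0.060 in ΔccdB-1, ΔccdB-2 and ΔccdB-3. In FEAT-3, FEAT-15 and FEAT-20 they were -0.19, -0.053 and 0.063. FEAT-3 was the lowest of the 6 clones in 14 of the 37 genes, against 2116 of all 13315 named genes. ΔccdB-1 was the highest in 10 of the 37 and FEAT-20 in 9, against 2340 and 2329 of all named genes. The 9 of FEAT-20 included Fads1, Acsl5, Gpam and Hadhb. Within groups the median SD of these genes was 0.21 on the log2 scale in control clones and 0.17 in FEAT clones, against 0.17 and 0.15 over all named genes.

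Different clones came last among the 10 lower genes on the normalized scale, where the order can differ from that of the deposited intensities. ΔccdB-2 was the lowest control in 5 of them, ΔccdB-3 in 4 and ΔccdB-1 in 1. FEAT-3 was the lowest FEAT clone in 6, FEAT-15 in 2 and FEAT-20 in 2. Their median against the control mean was -0.72, -0.56 and -0.57 in FEAT-3, FEAT-15 and FEAT-20, and its sign is fixed by the choice of these genes. Intensities ranged most widely for Plin4 within the controls, at 2.61-fold, and for Slc27a1 within the FEAT group, at 2.11-fold.

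**Figure D4:**
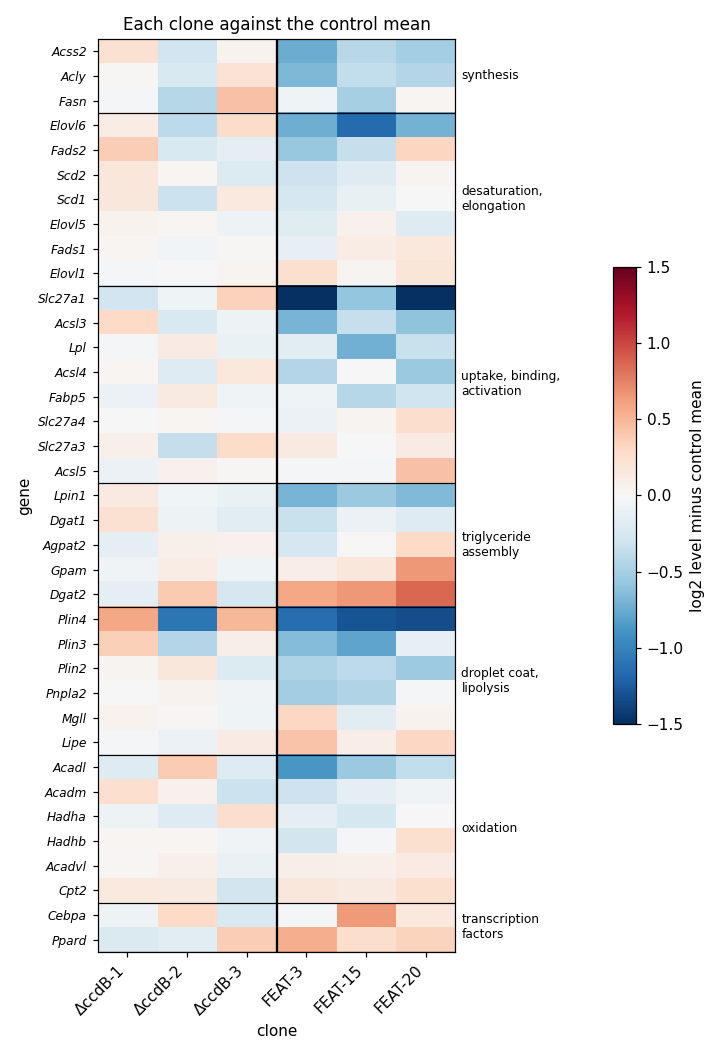
Log2 level of each of the 37 tested genes in each clone minus the mean of the 3 control clones, by role, with blue for lower and red for higher. The colour scale ends at 1.5 in both directions, and FEAT-3 and FEAT-20 of Slc27a1 are beyond it. FEAT-20 shows the fewest low genes of the FEAT clones, with a median of -0.0057 against -0.25 in FEAT-3.

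Other genes of the same metabolism were taken from 6 lists, which were also written with earlier results known. None of their 89 tested genes passed in either direction, against 0.225% of all genes, and 12 had an unadjusted p under 0.05, 3 higher and 9 lower. That is 13.5% of them, 3.37% higher and 10.1% lower, where all named genes gave 10.1%, 5.2% and 4.94%. The lists of regulators, of desaturation and elongation partners, of oxidation partners and of droplet proteins had median log2 differences of -0.058, -0.12, -0.06 and -0.031. Those of fatty acid activation and binding and of glycerolipid assembly had 0.046 and 0.044, beside 0.0071 over all named genes.

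The mitochondrial citrate carrier Slc25a1, which supplies the substrate of Acly, was at 3208 ± 1135 in control and 1998 ± 340.4 in FEAT clones, with overlap. Its log2 difference was -0.66 (SE 0.23, adjusted p = 0.405), and its other probe gave -0.60. Among regulators, Insig1, which holds SREBP in the endoplasmic reticulum and is itself an SREBP target, was at 1342 ± 346 and 995 ± 126 (log2 -0.45, adjusted p = 0.482), and 2 further probes above the limit gave -0.46 and -0.47. Srebf1 and Srebf2, which encode the SREBP factors, gave 0.10 and -0.22 (adjusted p = 0.900 and 0.753). Mlx, a partner of glucose-sensing factors, gave -0.39, and Cebpd, an early adipogenic factor, 0.41, from 1253 ± 205 to 1667 ± 166 (adjusted p = 0.472 and 0.445).

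In the other lists, single genes had the smallest p. Fads3, a desaturase relative, was at 1307 ± 178 in control and 1959.8 ± 206 in FEAT clones, a log2 difference of 0.58 (adjusted p = 0.243), higher where Elovl6 was lower. The desaturase gene Scd4 gave -0.36, with 1 of 6 arrays above the limit. The acyl-CoA binding protein gene Dbi was at 22921 ± 3799 and 16979.8 ± 644 (log2 -0.40, adjusted p = 0.408), and the thioesterase Acot7 and the transporter Slc27a6 gave -0.23 and 0.28. Ppargc1b, a coactivator of oxidative genes, was at 439 ± 79.1 and 317 ± 10.2 (log2 -0.53, adjusted p = 0.307). The electron transfer flavoprotein subunit Etfb gave 0.31 and carnitine acetyltransferase, Crat, -0.26.

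Of the droplet list, Abhd5, the activator of Pnpla2, was at 1289 ± 57 in control and 1062 ± 76.6 in FEAT clones (log2 -0.33, adjusted p = 0.501). Lysosomal acid lipase, Lipa, gave -0.35 and Lpcat1, a phospholipid acyltransferase, 0.26. In glycerolipid assembly, Gpat3, above the limit on all arrays, gave -0.36. With Gpat3, Agpat5 and Mogat2 had the 3 smallest p-values of that list, but Agpat5 was above the limit on 1 array and Mogat2 on none, and no gene of the list had an unadjusted p under 0.05. The perilipin Plin5, above the limit on 1 array, overlapped between the groups, and the adipocyte coats Plin1 and Cidec were below the tested probes and not above background on any array.

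**Figure D5:**
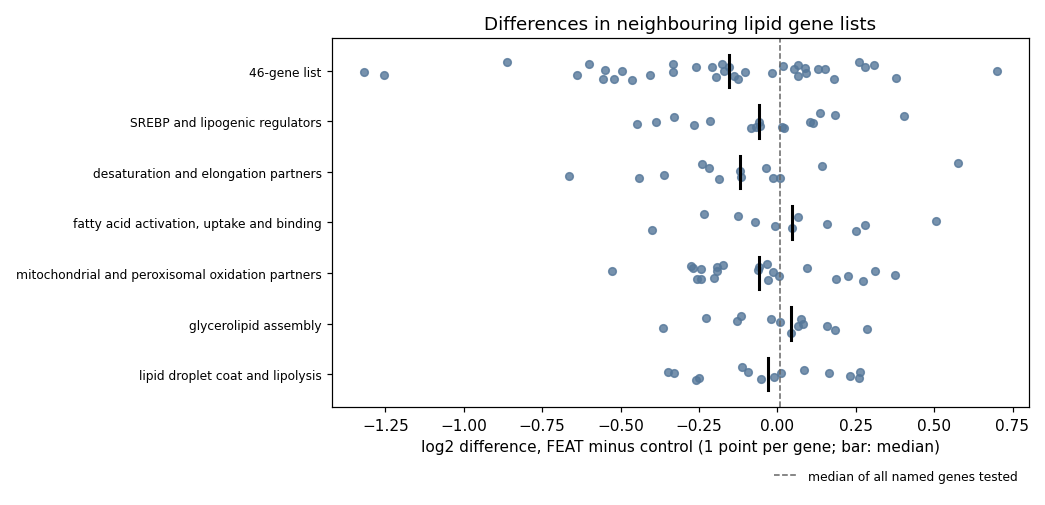
Log2 difference, FEAT minus control, of each tested gene of the 46-gene list and of 6 neighbouring lists, 1 point per gene, with the list median as a bar and the median of all named genes as a dashed line. The points of the 46-gene list, which has the most tested genes (37), reach furthest in both directions, from -1.32 to 0.70.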

How the data were processed

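RNA of 6 NIH3T3 clones was measured on 1-colour Illumina bead arrays, 1 per clone. The intensities were deposited as linear values, made with BeadStudio per the submitters' processing notes (version not given in the sources used here), without subtracted background or detection p-values. The series value table, also deposited as intensities, equals the array values times 1 factor per array (0.925 to 1.10), and intensities printed come from it. Differences come from the array values after normexp (offset 16, fitted to the signals), quantile normalization and log2, in limma 3.58.1 under R 4.3.3. FEAT and control clones were compared by lmFit and eBayes, two-sided, over the brightest 60% of probes, with Benjamini-Hochberg adjustment over all of them and a threshold of 0.05. The brightest tested probe stood for a gene. Of 45281 probes, 34885 carried 1 symbol, 18 several and 10378 none.

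Given by clone were the genes past the threshold, those without overlap, the 12 with the smallest p and the 5 brightest. Of each pathway list, the 3 genes with the smallest p were named, without values by clone. The 46 genes, the lists and these rules were chosen with earlier results of these data known, and the background limit after the values were seen. On simulated data of 27169 probes with 50 changed at each size, the test recovered 12% at 1.5-fold, 72% at 2-fold, 88% at 3-fold and 96% at 4-fold. Alternatives covered background correction, normalization, the filter, the variance model, array weights, the choice of probe and the omission of each clone. Array number limits the precision.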

Additional observations from a re-analysis of the deposited data

How the results depend on the processing

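No gene of the 37 and none of the member probes passed in any of the 7 settings of background correction, normalization, filter, variance model and array weights, or with the mean over all probes of a gene. The omissions of a clone gave 0 to 3 member probes and 0 to 3 genes past the threshold: 3 without ΔccdB-2 (Dgat2, Elovl6 and Plin4), 1 without FEAT-15 (Slc27a1) and 0 without each of the others. For these genes the clone left out was the nearest to the other group, so the larger difference follows from the omission. Over all probes, 50 passed, and the omissions gave 0 (without ΔccdB-1) to 158 (without ΔccdB-2), with 10 without ΔccdB-3, 18 without FEAT-3, 42 without FEAT-15 and 62 without FEAT-20. Each omission also leaves fewer clones, and the causes of these changes were not tested. The median log2 difference of -0.15 ran from -0.17 to -0.12 over the settings and from -0.21 to -0.069 over the omissions.

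Of 478 values of single genes under alternatives, 463 kept their sign and their side of the threshold. Hadhb was 0.012 in the deposited value table, opposite in sign. Over the omissions, the sign turned for 8 genes: Acsl5 (-0.026 to 0.21), Agpat2 (-0.12 to 0.16, differences of background, since it was above the limit on no array), Fads1 (-0.0041 to 0.14), Fasn (-0.39 to 0.047), Hadhb (-0.14 to 0.11), Mgll (-0.061 to 0.18), Slc27a3 (-0.093 to 0.23) and Slc27a4 (-0.029 to 0.15).

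With 3 clones a group, the test recovered 12% of simulated differences of 1.5-fold and 72% of those of 2-fold, and 45 of the 81 probes were above the background limit on all 6 arrays. No paired analysis was possible because the clone numbers of the groups share fewer than 2 values and name clones only.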
